A study of Mus musculus with 27 samples.

Results

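The lowest doses of TCDD at which the mouse liver responded were set, as a pool, against the groups below them. TCDD, the dioxin used as the standard long-lived ligand of AhR, the aryl hydrocarbon receptor, was given to mice at 0.03 or 0.1 µg/kg in 6 livers, here the active arm. The inactive arm was the 6 livers of mice given the sesame oil vehicle or TCDD at 0.01 µg/kg. The 12 libraries, of 27 in the series and with 3 biological replicates per group, were taken by their labelled dose. The line between 0.01 and 0.03 µg/kg was drawn with earlier calls of these data known, so the arms are not independent of the response. All 4 groups were ovariectomized female C57BL/6 mice with a labelled age of 120 days, gavaged every 4 days for 92 days, although 1 label also calls the dosing daily. The animals, the controls included, had therefore lost their ovaries, and each library is RNA of whole liver tissue, a mixture of cell types. The 12 libraries carry 12 distinct indices of a first set, of which the libraries at 0.3 to 10 µg/kg share 0 and those at 30 µg/kg share 3. Pooling the doses asks which transcripts had already moved at 0.03 and 0.1 µg/kg, with 6 livers on each side in place of 3.

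Bound by a ligand, the AhR enters the nucleus, pairs with ARNT and binds the DNA core GCGTG in front of its target genes, of which Cyp1a1 and Cyp1a2 are the classic ones in hepatocytes. Its bHLH-PAS fold is shared with the clock proteins CLOCK, NPAS2 and BMAL1 (gene Arntl). In the daily cycle of the liver, BMAL1 with CLOCK or NPAS2 drives the period genes, the REV-ERB repressors (Nr1d1, Nr1d2) and the PAR bZIP factors Dbp, Tef and Hlf through the E-box CACGTG, and the REV-ERBs in turn hold down Arntl and Npas2. Dbp and its relatives act on targets through the D-box TTANGTAA.

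Total counts ran from 17150026 to 30873586 per library, and 14321 genes passed the filter on low counts. Levels are in CPM, counts scaled to library size with TMM factors, and a gene is called where edgeR's quasi-likelihood test gives a Benjamini-Hochberg adjusted p below 0.05 over all genes tested. Albumin (Alb) took up to 16.3% of the counts of a library, and the summed hepatocyte markers lay between 122132 and 235845 CPM in the 12 libraries. The second and the third 0.01 µg/kg livers stood apart. They held 2715 and 2847 CPM of Serpina1e, an alpha-1-antitrypsin gene with near-identical copies, against 34.5 to 475 CPM in the other 10 livers. The second also lay at -64.0 on the first principal component, where the others ran from -13.2 to 22.6. Counts of calls are therefore also given without that pair.

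Between the arms 55 genes were called, 0.384% of those tested, of which 33 were higher (0.230%) and 22 lower (0.154%) in the active arm. The median fold was 2.26 for the rises and 1.84 for the falls, 27 of the 55 differed more than 2-fold and 8 more than 4-fold. The arms did not overlap for 49 of the 55, beside 128 of all genes (0.894%). Leaving out 1 library at a time gave 24 to 63 calls, the fewest without the third 0.1 µg/kg library, and 22 of the 55 were called in all 12 of these fits. The count was 40 without the second and the third 0.01 µg/kg livers and 22 with vehicle alone as the inactive arm. With 0.03 µg/kg alone as the active arm it was 4, namely Cyp1a1, Dbp, Per3 and Cyp2a5. A one-way model of the 4 groups called 100. DESeq2 called 214, of which 86 were higher (40.2%), whereas 60.0% of the edgeR calls were higher.

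**Figure D1:**
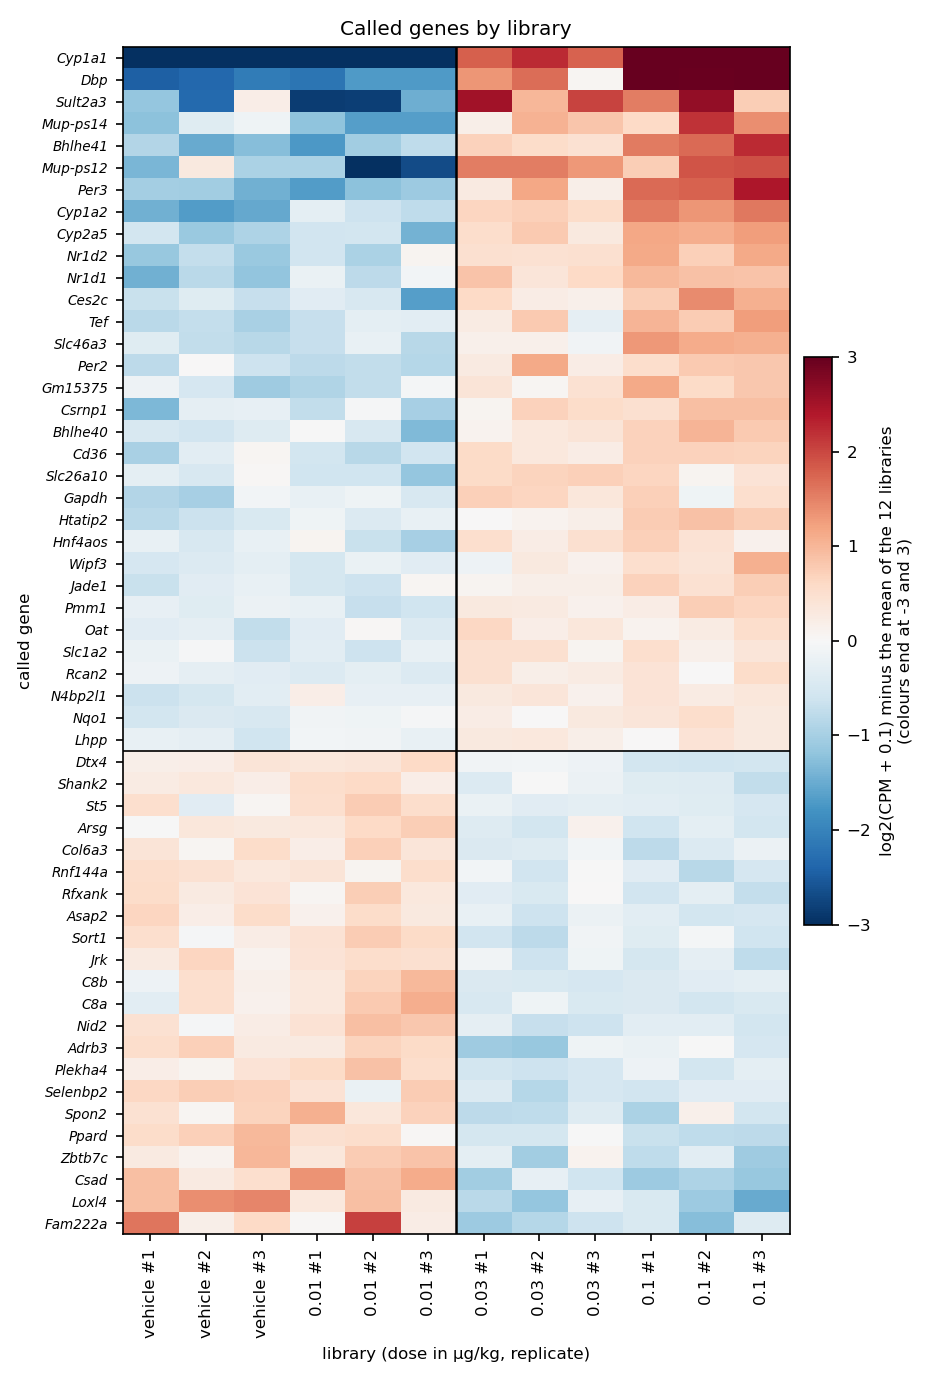
Each row is 1 of 54 of the called genes and each column 1 of the 12 livers, coloured by log2(CPM + 0.1) minus the mean of the 12 livers. The rises stand above the 22 falls, and the vertical line parts the inactive livers on the left from the active ones on the right; Cyp1a1 and Dbp show the deepest steps, with a further step from 0.03 to 0.1 µg/kg.

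The promoters of 6 of the genes that rose are shown because the AhR core and the clock's own motifs can be read in them. Each window runs from 250 bases before to 50 bases after the RefSeq start of the gene on GRCm38.p6, printed 5′ to 3′ on the strand of the gene. Capitals mark GCGTG (or CACGC, the same core on the other strand), the E-box CACGTG and the D-box TTANGTAA. The windows are, in the order printed, chr9:57697363-57697662 on the plus strand, chr9:57683606-57683905 on the minus strand, chr7:45704997-45705296 on the plus strand, and on the minus strand chr4:151044616-151044915, chr6:145865371-145865670 and chr11:98775328-98775627.
Cyp1a1: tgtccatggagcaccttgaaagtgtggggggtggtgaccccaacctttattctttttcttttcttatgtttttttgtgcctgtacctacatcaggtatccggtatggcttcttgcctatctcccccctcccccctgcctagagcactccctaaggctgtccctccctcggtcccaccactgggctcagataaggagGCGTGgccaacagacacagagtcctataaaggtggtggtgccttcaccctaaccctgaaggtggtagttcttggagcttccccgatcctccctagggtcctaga
Cyp1a2: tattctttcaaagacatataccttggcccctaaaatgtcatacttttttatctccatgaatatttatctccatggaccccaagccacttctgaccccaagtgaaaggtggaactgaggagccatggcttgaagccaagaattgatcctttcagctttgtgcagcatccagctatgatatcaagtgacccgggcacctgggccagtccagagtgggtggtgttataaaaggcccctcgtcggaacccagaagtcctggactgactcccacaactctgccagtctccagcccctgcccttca
Dbp: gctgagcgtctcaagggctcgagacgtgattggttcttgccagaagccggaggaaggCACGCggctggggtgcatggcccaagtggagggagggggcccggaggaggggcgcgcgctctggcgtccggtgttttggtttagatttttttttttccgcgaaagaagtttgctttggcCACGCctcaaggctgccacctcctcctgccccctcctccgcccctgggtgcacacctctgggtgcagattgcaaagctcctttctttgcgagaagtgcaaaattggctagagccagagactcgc
Per3: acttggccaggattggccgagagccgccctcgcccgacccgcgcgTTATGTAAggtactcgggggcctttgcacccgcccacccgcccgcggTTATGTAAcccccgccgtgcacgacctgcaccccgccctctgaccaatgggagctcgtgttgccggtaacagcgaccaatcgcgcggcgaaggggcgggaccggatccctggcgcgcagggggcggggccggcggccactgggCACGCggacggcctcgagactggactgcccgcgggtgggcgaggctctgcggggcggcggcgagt
Bhlhe41: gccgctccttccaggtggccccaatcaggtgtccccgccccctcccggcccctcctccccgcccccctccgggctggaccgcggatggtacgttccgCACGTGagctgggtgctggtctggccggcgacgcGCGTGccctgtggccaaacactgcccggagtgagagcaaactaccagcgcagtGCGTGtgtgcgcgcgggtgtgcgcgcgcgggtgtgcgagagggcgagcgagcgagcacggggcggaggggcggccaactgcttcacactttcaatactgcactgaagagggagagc
Nr1d1: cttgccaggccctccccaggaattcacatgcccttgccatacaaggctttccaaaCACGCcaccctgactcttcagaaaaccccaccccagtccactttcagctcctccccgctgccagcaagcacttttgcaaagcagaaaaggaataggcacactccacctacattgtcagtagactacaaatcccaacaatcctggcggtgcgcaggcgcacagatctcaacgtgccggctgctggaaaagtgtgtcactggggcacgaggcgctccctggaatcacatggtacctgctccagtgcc

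In these windows Cyp1a1 held 1 core, first base at -54 from the start site, and Cyp1a2 held none of the 3 motifs. Dbp held 2 cores, at -193 and -74. Per3 had 2 D-boxes, at -205 and -158, and 1 core at -15. Bhlhe41 had 1 E-box at -153 and 2 cores, at -119 and -66, and Nr1d1 had 1 core at -195. Of the 39 called genes that matched a window by symbol, GCGTG on either strand stood in 14 of 27 rises and 7 of 12 falls, beside 35.2% of all 27025 genes with windows. The E-box stood in 3 of the 27 rises and in 0 of the 12 falls (8.09% of all genes), and the D-box in 1 and 0 (2.72%). AGGTCA, the half-site read by the REV-ERB and ROR receptors, stood in 6 and 2 (18.1%). A gene was counted if any of its windows held the motif. The 39 called genes had 60 windows and the 27025 genes 32851, so the called genes had more windows per gene. The 27025 also include genes that were not tested here. The shares are therefore not like for like, and their difference was not tested. A match says only that the letters are present in this window.

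Cyp1a1, the P450 whose transcription is the textbook readout of the AhR, was at 2.29 to 4.21 CPM in the inactive livers. At 0.03 µg/kg its 3 livers measured 121, 167 and 120.5 CPM, and at 0.1 µg/kg 1239, 1049 and 1146 CPM. Every active liver lay above every inactive one, and the 0.1 µg/kg livers lay above those at 0.03 µg/kg. The pooled log2 fold change was 7.68 (SE 0.87, adjusted p = 0.00584 in edgeR), with the step between the active doses counted as spread. The gene lies at chr9:57687928-57703824 on the plus strand of GRCm38, and its neighbour Cyp1a2 at chr9:57676937-57683703 on the minus strand.

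Cyp1a2, a P450 abundant in hepatocytes around the central vein, measured 720.5, 613 and 685 CPM in vehicle livers and 1603, 1272 and 1157 CPM at 0.01 µg/kg. It rose to 3080, 3252 and 2872 CPM at 0.03 µg/kg and to 5802, 4925 and 5902 CPM at 0.1 µg/kg. The 4 groups thus formed 4 separate steps. Between the arms the fold was 4.27 (log2 2.09, SE 0.28, adjusted p = 0.00584 in edgeR). Without the second and the third 0.01 µg/kg livers its adjusted p was 0.0562, as was that of Cyp1a1, and with 0.03 µg/kg alone as the active arm it was 0.136. Both fits count the steps between the groups of an arm as spread. In the one-way model of the 4 groups the edgeR adjusted p of the arms was 3.32e-08, and 2.50e-12 for Cyp1a1. At 0.03 µg/kg against vehicle alone, that model gave Cyp1a2 a fold of 4.56 (adjusted p = 2.67e-06 in edgeR). The name inactive for the 0.01 µg/kg group rests on calls, and Cyp1a2 goes partly against it. It exceeded vehicle by 1.00 on the log2 scale (adjusted p = 0.0608 in edgeR), with all 3 livers above all 3 vehicle livers. Some other called genes, such as Nr1d1, Nqo1, Htatip2 and Loxl4, also had all 3 livers at 0.01 µg/kg beyond all 3 vehicle livers toward the active arm. Their adjusted p in edgeR was 0.515, 0.769, 0.769 and 0.810. St5, Plekha4 and Slc26a10, also called, lay beyond vehicle on the other side.

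Nqo1, a quinone reductase under the control of both the AhR and NRF2, was the only other called member among the 9 AhR targets tested. Its levels were 11.1 to 12.1 CPM in vehicle livers, 14.9 to 15.7 at 0.01, 16.3 to 19.8 at 0.03 and 20.0 to 23.6 at 0.1 µg/kg. The arms did not overlap, and the fold was 1.49 (adjusted p = 0.0395 in edgeR). This call was lost in 8 of the 12 fits that leave out a library, with an adjusted p of up to 0.11. Nfe2l2, which encodes NRF2, had 53.3 to 72.2 CPM in the inactive and 73.3 to 87.7 CPM in the active livers. These ranges did not overlap, and the adjusted p of the 0.36 log2 difference was 0.100 in edgeR.

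The other AhR targets gave no call. Tiparp, the PARP that represses the AhR, was at 2.07 to 5.40 CPM in inactive and 5.10 to 6.81 CPM in active livers (adjusted p = 0.372 in edgeR). Cyp1b1, the P450 of extrahepatic tissues, was at 0.652 and 0.737 CPM on average, with a log2 fold change of 0.14 (SE 0.29). Ugt1a6a and Ugt1a6b, which add glucuronic acid to phenols, had log2 fold changes of 0.50 and -0.14, and as 50.3% and 60.6% of their exonic bases overlap another gene of the same strand their counts are uncertain. Gsta1 had a log2 fold change of -0.32 (SE 0.64), whose sign turned without the second 0.01 µg/kg liver (0.74). Ahrr, the receptor's repressor, had 22 counts in each arm and Aldh3a1 2 counts in each arm, so neither was tested. The 9 had a median log2 fold change of 0.49, beside 0.0019 over all genes. In all, 3 of the 9 were called, each of them higher, beside 0.230% of all genes. The count was 2 or 3 with 1 library left out, and 1 without the second and the third 0.01 µg/kg livers.

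None of the 7 tested genes of the receptor and its partners was called. Ahr itself stood at 21.05 to 55.5 CPM in inactive and 31.2 to 39.1 CPM in active livers, a log2 fold change of -0.03 (SE 0.16). For Arnt, its partner, the value was -0.24 (SE 0.10, adjusted p = 0.416 in edgeR). Ptges3 and the chaperone genes Hsp90aa1 and Hsp90ab1 had log2 fold changes of 0.15, 0.41 and 0.19.

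**Figure D2:**
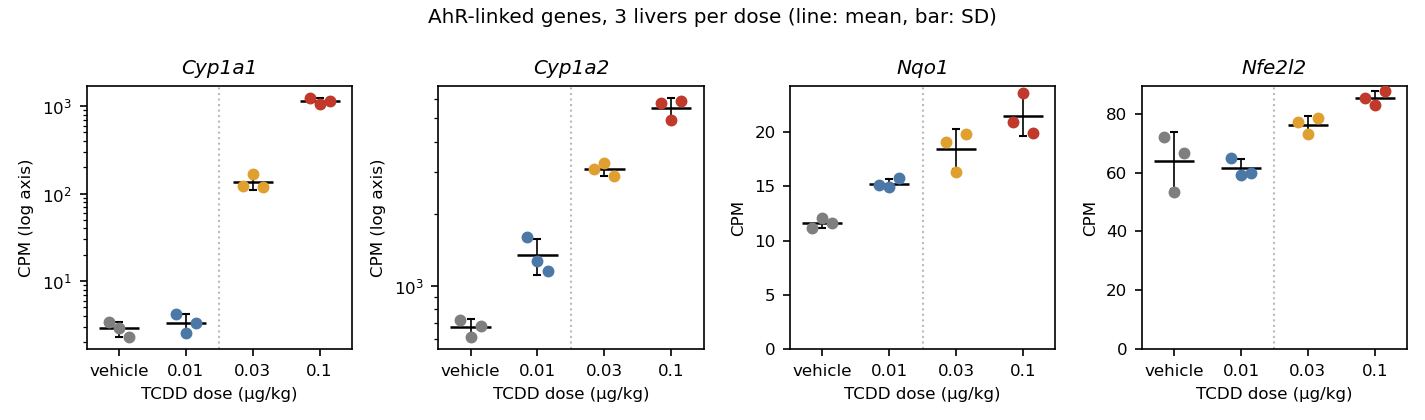
Points are CPM of single livers by TCDD dose, lines are means and bars are SDs of 3 livers; the axes of Cyp1a1 and Cyp1a2 are logarithmic and the others start at 0. Cyp1a1 steps from 2.29 to 4.21 CPM in the inactive livers to 1049 to 1239 CPM at 0.1 µg/kg, while Cyp1a2 is already higher at 0.01 µg/kg than with vehicle.

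The clock genes held more calls than any other list. Of 13 tested genes of the period, REV-ERB and PAR bZIP group, 8 were called higher in the active arm (Dbp, Per2, Per3, Nr1d1, Nr1d2, Tef, Bhlhe40 and Bhlhe41), beside 0.230% of all genes. All 13 had a positive log2 fold change, with a median of 1.44 beside 0.0019 over all genes. Of the 7 tested genes that peak with BMAL1, 0 were called, 6 had a negative log2 fold change and the median was -0.64. An unadjusted p below 0.05 in edgeR was reached by 5 of the 7, beside 10.0% of all genes. The pooled fit counts steps between the groups of an arm as spread. In the one-way model of the 4 groups, and also in DESeq2, Arntl, Npas2 and Nfil3 were called. Earlier results of these data already held clock genes among the calls at low doses, so the list is no independent evidence. Across both lists the count was 7 to 11 with 1 library left out, 5 (4 of the 8, and Cry2) without the second and the third 0.01 µg/kg livers, 3 with vehicle alone as the inactive arm and 2 with 0.03 µg/kg alone as the active arm.

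Dbp, the D-box factor that swings most widely over the day, measured 0.899, 0.965 and 1.18 CPM in vehicle livers and 1.11, 1.60 and 1.59 CPM at 0.01 µg/kg. Its 0.03 µg/kg livers had 13.7, 17.5 and 5.58 CPM and its 0.1 µg/kg livers 46.1, 42.6 and 57.7 CPM. Every active liver lay above every inactive one, and the 0.1 µg/kg livers lay above those at 0.03 µg/kg. The pooled fold was 25.0 (log2 4.64, SE 0.58, adjusted p = 0.00584 in edgeR). On the other strand 18.0% of its exonic bases overlap another gene.

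Per3, a period gene, averaged 1.34 ± 0.242 CPM (SD, n = 6) in the inactive and 9.25 ± 5.42 CPM in the active arm. Its lowest active liver had 3.70 CPM and its highest inactive one 1.56 CPM. Per2 ran from 1.75 to 3.28 CPM against 3.80 to 7.19 CPM, a fold of 2.46. Per1, which responds to acute signals, ran from 2.26 to 32.2 CPM and from 5.24 to 42.9 CPM, and its log2 fold change of 0.56 (SE 0.73) was -0.0061 without the second 0.03 µg/kg liver.

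Nr1d1, which encodes the repressor REV-ERBα, lay at 33.6 to 86.8 CPM with a median of 52.4 in the inactive arm and at 118 to 180 CPM with a median of 165 in the active arm. The arms did not overlap and the fold was 2.72 (adjusted p = 0.00600 in edgeR). Nr1d2, its paralog REV-ERBβ, had the same fold of 2.72, from 12.6 to 29.2 CPM up to 38.0 to 61.1 CPM. Tef, a PAR bZIP factor, was 2.52-fold higher and Hlf, its relative, had a log2 fold change of 0.40 (adjusted p = 0.324 in edgeR).

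Bhlhe41 and Bhlhe40, repressors that compete for the E-box, rose as well. Bhlhe41 went from 0.210 to 1.68 CPM (log2 2.98, adjusted p = 0.00394 in edgeR), with no overlap, although 19.05% of its exonic bases overlap a gene on the other strand. Bhlhe40 went from 34.6 to 72.9 CPM (log2 1.07), a call lost without the first vehicle, the second 0.01 or the first or the third 0.1 µg/kg liver, with an adjusted p of up to 0.0679 in edgeR.

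Among the genes that peak with BMAL1, Arntl had 26.4 to 31.5 CPM in the inactive and 10.1 to 23.3 CPM in the active livers. These ranges did not overlap, yet the log2 fold change of -0.78 missed the threshold (adjusted p = 0.0587 in edgeR, 0.0186 to 0.137 with 1 library left out). Npas2, the partner of BMAL1 beside CLOCK, ran from 7.30 to 20.6 CPM against 1.63 to 9.12 CPM, which is -1.83 on the log2 scale (SE 0.41, adjusted p = 0.104 in edgeR). Nfil3, the repressor at the D-box, had a log2 fold change of -0.90 (adjusted p = 0.0807 in edgeR) and Cry1 one of -0.64. Clock itself had a log2 fold change of -0.08 (SE 0.15).

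Each liver was also given a clock score, the mean log2 CPM of the period, REV-ERB and PAR bZIP list minus that of the BMAL1 list. It ran from -2.85 to -2.01 with a median of -2.23 in the inactive livers and from -1.15 to 0.84 with a median of -0.0546 in the active livers, so that the arms did not overlap. The hour at which each liver was taken is not given in the sources used here. As 8 of the 55 called genes are part of the score and the score follows the arm, a fit with it as a covariate has little left to test, and its calls (1 gene, and 0 of the 55) say nothing on any single gene. The SE of the 55 was 2.19 times that of the main fit in the median. Their log2 fold changes moved unequally in that fit: 12 were at least as large as before, 20 lay between 50% and the full size, 21 lay under 50% and 2, Tef and Wipf3, changed sign. C8b went from -0.86 to -1.36 (SE 0.32) and Nid2 from -0.97 to -1.12 (SE 0.37), and Csad from -1.67 to -1.51 (SE 0.47). Cyp1a1 went from 7.68 to 3.63 (SE 1.23) and Cyp1a2 from 2.09 to 0.69 (SE 0.46), while Htatip2 went from 0.91 to 0.04 (SE 0.31) and Slc46a3, a lysosomal transporter, from 1.31 to 0.07 (SE 0.46). Because the score follows the arm, the split of a fold change between score and arm is poorly fixed. These shifts therefore do not sort the genes by their tie to the clock. Arm and clock score went together in these 12 livers and cannot be told apart here.

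**Figure D3:**
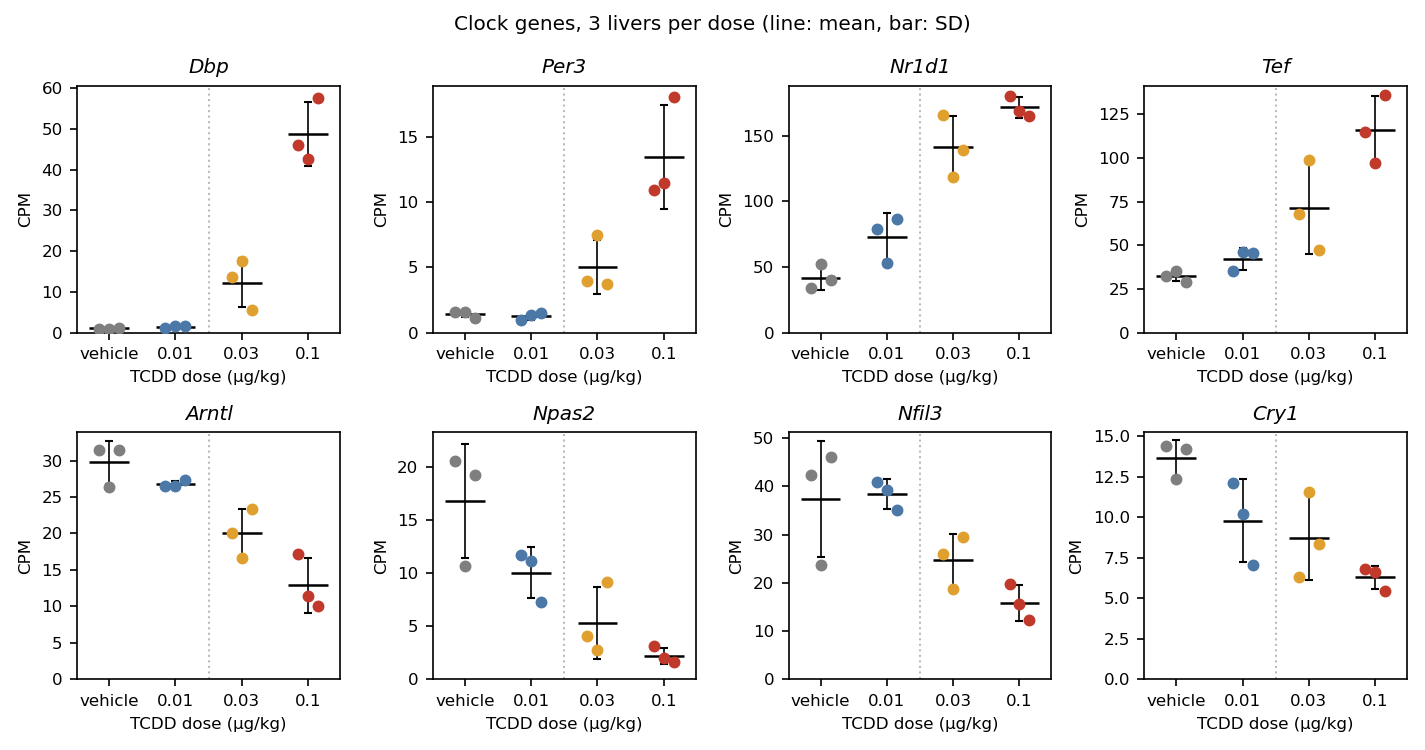
Points are CPM of single livers by TCDD dose, lines are means and bars are SDs of 3 livers, on axes that start at 0. Dbp, Per3, Nr1d1 and Tef are higher in the active livers, whereas Arntl, Npas2, Nfil3 and Cry1 have lower means there without passing the main edgeR test of the pooled arms.

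Genes of foreign compound, amino acid and lipid metabolism followed. Cyp2a5, the coumarin hydroxylase, had the lowest adjusted p of all genes (0.00213 in edgeR). It measured 157, 106 and 121 CPM in vehicle livers, 153, 157 and 84.99 CPM at 0.01, 330.1, 394 and 281 CPM at 0.03 and 510.2, 489 and 547 CPM at 0.1 µg/kg. Every active liver lay above every inactive one, and the fold was 3.27. It kept its call in every fit with a library or a group left out, though not with the clock score as a covariate. A near-identical paralog exists for this gene, and reads that fit both copies are not counted, so its level is uncertain. It was the only one called of 24 tested genes of the Cyp2, Cyp3 and Cyp4 families, of which 18 had a positive log2 fold change.

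Csad, the enzyme that makes hypotaurine and so taurine from cysteine, had the lowest adjusted p among the falls. Its livers measured 305.5, 196 and 231 CPM with vehicle, 417, 301.5 and 355 CPM at 0.01, 79.9, 139 and 108.5 CPM at 0.03 and 77.3, 86.2 and 75.0 CPM at 0.1 µg/kg. The lowest inactive liver stood above the highest active one. The log2 fold change was -1.67 (SE 0.19, adjusted p = 0.00242 in edgeR), with a mean of 301 ± 80.4 CPM (SD, n = 6) against 94.3 ± 25.0 CPM.

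Oat, which turns ornithine into glutamate semialdehyde, and Slc1a2, a glutamate transporter of the hepatocytes next to the central vein, rose together with Cyp1a2 as 3 of the 17 tested zonation genes. Oat went from 870.2 to 1492 CPM up to 1564 to 2213 CPM (1.60-fold) and Slc1a2 from 147 to 225 CPM up to 245 to 324 CPM (1.60-fold). Neither overlapped between the arms, and from 0.03 to 0.1 µg/kg they differed by -0.09 and -0.02 on the log2 scale. Without the third 0.1 µg/kg liver both calls were lost (adjusted p = 0.0651 and 0.0507 in edgeR), and that of Oat also without the third 0.01 or the first 0.03 µg/kg liver (0.0651 at most). Over all genes tested, 0.230% were called higher. The median of the 17 zonation genes was a log2 fold change of 0.04. Cyp2e1, the most abundant uncalled one, had a log2 fold change of 0.44 (adjusted p = 0.264 in edgeR).

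Cd36, the fatty acid translocase, had 35.7 to 72.3 CPM with a median of 47.5 in inactive and 82.1 to 114 CPM with a median of 108 in active livers. The arms did not overlap and the fold was 2.05 (adjusted p = 0.00584 in edgeR). Ppard, the nuclear receptor PPARδ of fatty acid use, moved the other way, from a median of 15.7 to 6.99 CPM. Its highest active liver, the third at 0.03 µg/kg with 10.5 CPM, lay just under its lowest inactive one with 10.95 CPM. No member of the lists of fatty acid and triglyceride synthesis (20 genes), fatty acid oxidation (22), cholesterol synthesis and uptake (19) or bile acid synthesis and transport (19) was called, and their median log2 fold changes lay between -0.16 and 0.09. Scd1, the stearoyl-CoA desaturase, had a log2 fold change of -0.46 (adjusted p = 0.194 in edgeR).

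Other rises included Ces2c, a carboxylesterase (2.67-fold), Slc46a3 (2.48-fold), Csrnp1, a nuclear protein (2.26-fold), and Htatip2, an oxidoreductase-like protein (1.88-fold). Sult2a3, a sulfotransferase of steroids, was at 0.0370 to 1.04 CPM in inactive and 1.56 to 6.03 CPM in active livers. Mup-ps12, a major urinary protein pseudogene, averaged 0.375 and 2.76 CPM. The last pair belong to families of near-identical copies, and their counts are uncertain. Calls lost without 1 library among these were those of Ces2c (without the second 0.01 or the third 0.1 µg/kg liver, adjusted p of up to 0.0507), Csrnp1 (without the third 0.1 µg/kg liver, 0.0595) and Mup-ps12 (first vehicle or the third 0.1 µg/kg liver, up to 0.0650). That of Sult2a3 was lost without the first vehicle or the second or the third 0.01 µg/kg liver (up to 0.0691), that of Htatip2 without the first vehicle, the second 0.01 or any 0.1 µg/kg liver (up to 0.0651), and that of Slc46a3 in 9 of the 12 fits (up to 0.104).

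Of 26 tested genes of collagen, crosslinking and matrix 2 were called, both lower, beside 0.154% of all genes called lower. Loxl4, a lysyl oxidase that crosslinks collagen, measured 16.7, 23.4 and 24.5 CPM with vehicle, 11.1, 16.7 and 10.6 CPM at 0.01, 4.99, 3.89 and 7.37 CPM at 0.03 and 6.45, 4.13 and 3.06 CPM at 0.1 µg/kg. The arms did not overlap, and the log2 fold change was -1.78 (SE 0.25, adjusted p = 0.00584 in edgeR). Col6a3, a chain of collagen VI, fell from 11.3 to 6.66 CPM (1.69-fold), a call lost without the third vehicle, the first 0.03 or the first or second 0.1 µg/kg liver (adjusted p of up to 0.0620 in edgeR). Of the 26 genes, 4 had a positive log2 fold change and 15 an unadjusted p below 0.05 (10.0% of all genes), with a median of -0.32. Such a p was not particular to this list. It was also reached by 11 of 24 Cyp2, Cyp3 and Cyp4 genes, 7 of 14 genes of the growth hormone and IGF1 axis and 5 of 9 B and plasma cell markers. The fasting and feeding (15 tested) and interferon response (18) lists held 0. Col1a1, Col1a2 and Col3a1, the chains of the fibrillar collagens, had log2 fold changes of -0.82, -0.69 and -0.69 and adjusted p of 0.221, 0.100 and 0.207 in edgeR. Nid2, a basement membrane protein outside that list, fell 1.96-fold without overlap.

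In bulk liver, fewer cells of a type and less RNA per cell cannot be told apart. Stellate cell markers, whose cells make much of the matrix, summed to 438 to 667 CPM in inactive and 406 to 522 CPM in active livers, with 1 of 11 positive and 0 called. Mesothelial markers summed to 1.60 to 11.1 and 1.58 to 3.87 CPM, with 0 of 5 positive. B and plasma cell markers summed to 13.4 to 35.2 and 10.8 to 20.0 CPM, with 0 of 9 positive and 0 called. Recruited macrophage and monocyte markers summed to 50.4 to 73.9 and 49.6 to 69.4 CPM, with 1 of 10 positive, 0 called and a median log2 fold change of -0.49. Bile duct markers summed to 54.2 to 80.6 and 54.3 to 69.96 CPM with 0 of 8 positive, and neutrophil markers to 8.90 to 21.5 and 7.53 to 12.4 CPM with 0 of 4 positive. The part of these cells in the falls was not tested. Adrb3, counted among 3 tested adipocyte markers, fell 1.96-fold, but 24.9% of its exonic bases overlap a gene on the other strand and Lep and Retn, markers of that cell, had no counts. Its call was lost in 8 of the 12 fits with a library left out (adjusted p of up to 0.109 in edgeR). Mesothelial, bile duct, neutrophil, Kupffer cell, T and NK cell, endothelial and erythroid lists held 0 called genes. Of the pancreatic acinar markers 8 had no counts.

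Falls outside these groups included C8b and C8a, neighbouring genes for chains of complement component C8. C8b measured 109 to 238 CPM in inactive and 85.5 to 99.0 CPM in active livers without overlap, with a log2 difference of 0.11 between 0.03 and 0.1 µg/kg (1.82-fold between the arms, adjusted p = 0.0142 in edgeR). C8a fell 1.86-fold, a call lost in 9 of the 12 fits with a library left out, with 1 active liver, at 202 CPM, above the lowest inactive one at 178 CPM, and is named here after its values were seen. Selenbp2, a selenium-binding protein, fell from a median of 12.97 to 5.96 CPM. Asap2, a GTPase-activating protein for ARF, fell 1.74-fold, Sort1, the sorting receptor sortilin, 1.78-fold and Rnf144a, a ubiquitin ligase, 1.70-fold. Rfxank, a factor for MHC class II genes, fell 1.73-fold, with 33.8% of its exonic bases overlapping the other strand. Zbtb7c, Plekha4, Jrk and Fam222a, at 3.58 CPM or less on average in either arm, fell 1.79- to 3.55-fold, with calls lost in 8 to 10 of the 12 fits with a library left out. Those of Sort1 and Rnf144a were lost without the third 0.1 µg/kg liver (adjusted p = 0.0651 and 0.0686 in edgeR).

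The remaining lists held few calls. Of 17 tested genes of NRF2 and glutathione, Nqo1 alone was called and 14 had a positive log2 fold change, with a median of 0.20. Of 20 genes of rhythmic output of the liver, Cyp2a5 alone was called, with a median of 0.18. The lists of UDP-glucuronosyltransferases (13 tested), heme and iron (17), glucose and glycogen (19), fasting and feeding (15), heat shock (8), immediate early genes (15), acute phase proteins (16), interferon response (18), endoplasmic reticulum stress (17) and cell cycle (17) held 0. So did the growth hormone and IGF1 axis (14 tested), with a median of -0.33 and with Serpina1e at -3.83, where the second and the third 0.01 µg/kg livers stood apart. Ribosomal proteins and mitochondrial transcripts held 0 as well. Of the 5 reference genes, Gapdh was called, from 2.79 to 5.38 CPM. It has many copies, and reads with several alignments were not counted, so its level is uncertain. Its arms overlapped, and the call was lost in 9 of the 12 fits with a library left out (adjusted p of up to 0.12 in edgeR). Actb, the beta-actin gene, had a log2 fold change of -0.15 (adjusted p = 0.704 in edgeR).

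**Figure D4:**
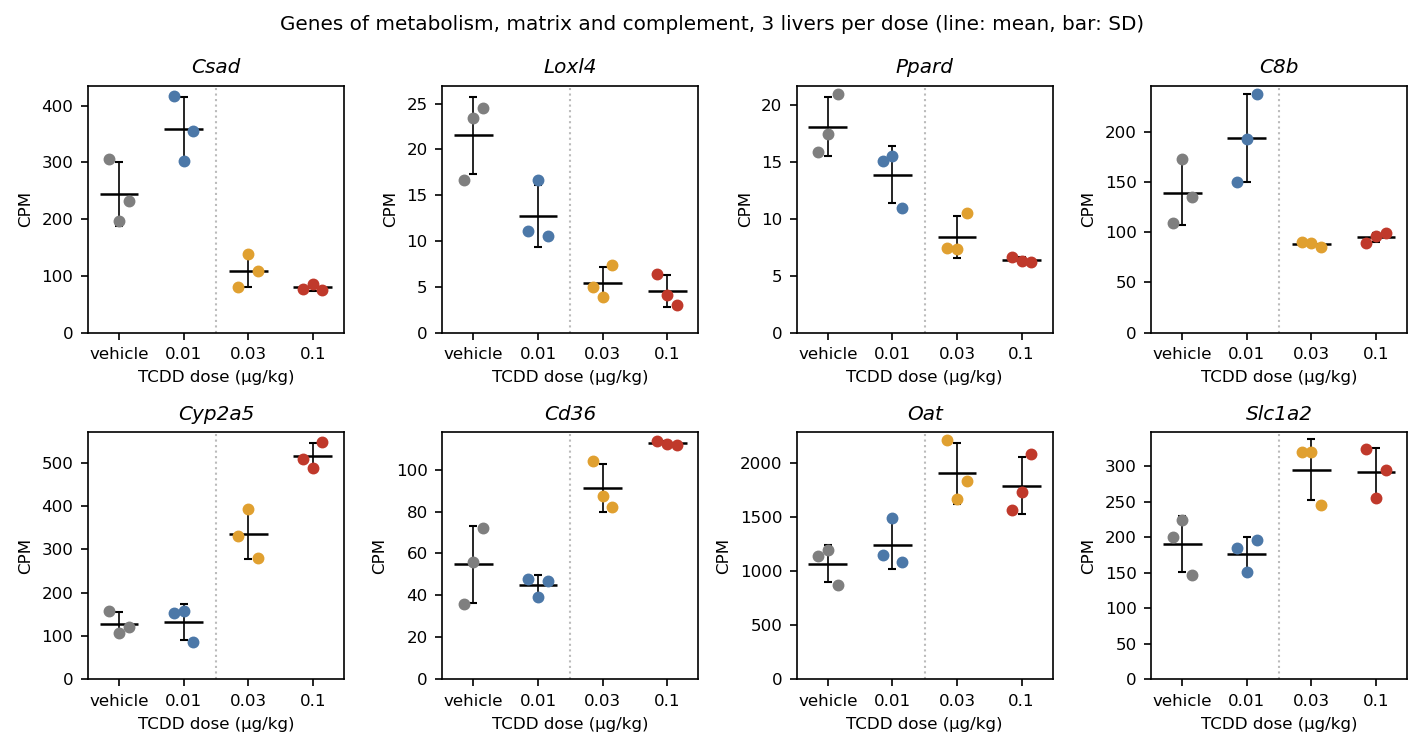
Points are CPM of single livers by TCDD dose, lines are means and bars are SDs of 3 livers, on axes that start at 0. Csad, Loxl4, Ppard and C8b are lower, and Cyp2a5, Cd36, Oat and Slc1a2 higher, in each active liver than in each inactive one.

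Within the active arm the step from 0.03 to 0.1 µg/kg gave 1 call (0.00698% of genes), Cyp1a1, with a log2 fold change of 3.07 (adjusted p = 2.06e-06 in edgeR). An unadjusted p below 0.05 was reached by 562 genes (3.92%), and DESeq2 called 15. The next were Dbp and Slc46a3, with log2 fold changes of 2.00 and 1.10 and an adjusted p of 0.0922 each. For 26 of the 33 rises the 0.1 µg/kg mean lay above the 0.03 µg/kg mean and for 14 of the 22 falls below it, beside 50.5% of all genes with the higher mean at 0.1 µg/kg. Against vehicle alone, in the one-way model of the 4 groups, 10 genes (0.0698%) were called at 0.03 µg/kg and 44 (0.307%) at 0.1 µg/kg, with 562 (3.92%) and 882 (6.16%) at an unadjusted p below 0.05. These comparisons share the 3 vehicle livers.

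Within the inactive arm, 0.01 µg/kg against vehicle gave 0 calls in edgeR, with 781 genes (5.45%) at an unadjusted p below 0.05, and 37 calls in DESeq2. Without the first 0.01 µg/kg liver, which leaves the unlike pair as that group, edgeR called 115 genes. For the clock genes the 0.01 µg/kg group had log2 fold changes over vehicle of 0.49 (Dbp), -0.18 (Per3), 0.80 (Nr1d1), 0.55 (Nr1d2) and 0.39 (Tef), with adjusted p from 0.515 to 0.968 in edgeR. Csad and C8b had 0.55 and 0.48, so that their means at 0.01 µg/kg lay above vehicle while those at 0.03 µg/kg lay below.

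At the higher doses some of the same genes had these mean levels, with all 27 libraries scaled together. The libraries at 30 µg/kg reuse the vehicle indices, and those at 0.3 to 10 µg/kg carry another set, so that dose and index set cannot be told apart there. The second 0.3 µg/kg library had only 434011 total counts, beside 13213761 in the first and 18171217 in the third. Means and SDs at 0.3 µg/kg include it and are uncertain. At 30 µg/kg Cyp1a1 averaged 7201 ± 652 CPM (SD, n = 3) and Cyp1a2 26408 ± 2399 CPM, and Cd36 534 ± 182 CPM beside 59.3 ± 20.0 CPM with vehicle. Loxl4 was at 1.01 ± 0.258 CPM beside 23.3 ± 4.66 CPM. Dbp went from 52.6 ± 8.69 CPM at 0.1 µg/kg to a mean of 127 ± 56.7 CPM with 0.3 µg/kg. It was 165 ± 51.9 CPM for the 1 µg/kg group and 187 ± 10.9 CPM for the 3 µg/kg group, then 127 ± 22.1 CPM with 10 µg/kg and 52.0 ± 32.6 CPM with 30 µg/kg. Its mean was thus highest at 3 µg/kg and at 30 µg/kg stood near that at 0.1 µg/kg. Oat, with a vehicle mean of 1157 ± 187 CPM, averaged 1879 ± 153 CPM at 0.3 µg/kg, 1767 ± 658 CPM with 1 µg/kg and 1952 ± 450 CPM with 3 µg/kg, followed by 1187 ± 343 CPM with 10 µg/kg and 847 ± 93.2 CPM with 30 µg/kg. Its higher mean level was thus seen up to 3 µg/kg and not at 10 or 30 µg/kg. C8b, with a vehicle mean of 151 ± 35.2 CPM, averaged 134 ± 64.2 CPM at 0.3 µg/kg, 153 ± 79.7 CPM at 1 µg/kg, 149.7 ± 19.9 CPM with 3 µg/kg and 158 ± 18.6 CPM with 10 µg/kg, beside 108 ± 70.5 CPM at 30 µg/kg. The lower level of C8b in the active arm was thus not seen in the means from 1 to 10 µg/kg.

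**Figure D5:**
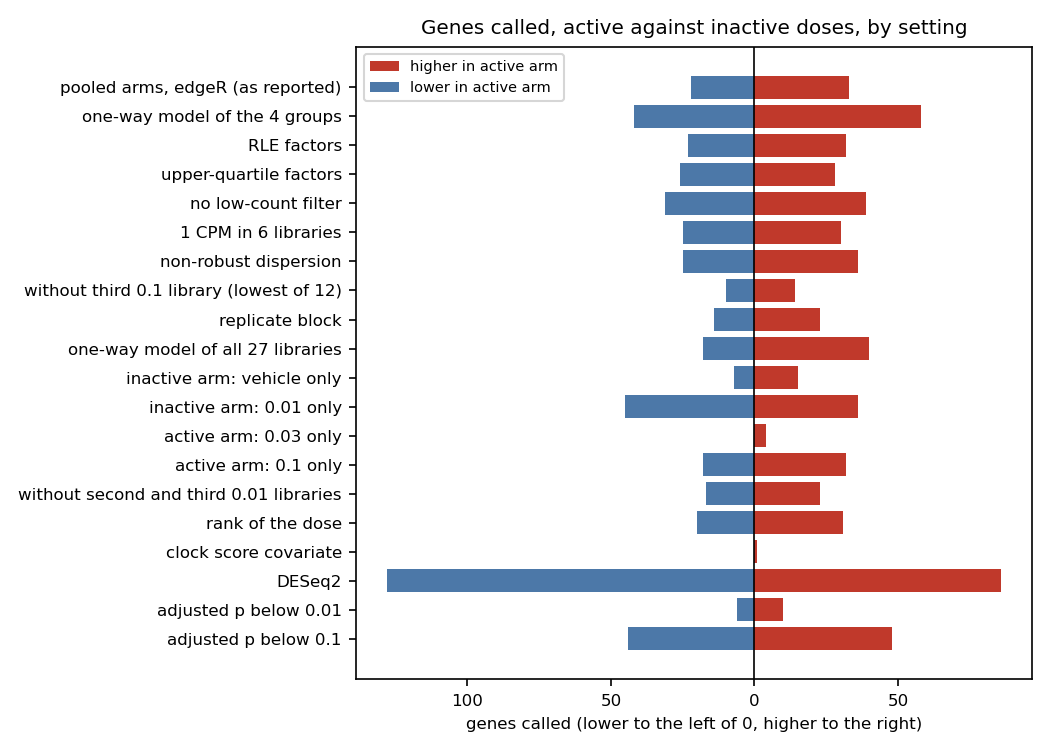
Bars count the genes called higher (right of 0) and lower (left of 0) in the active arm under each setting. The count is 55 as reported, 4 with 0.03 µg/kg alone as the active arm, 1 with the clock score as a covariate and 214 with DESeq2.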

How the data were processed

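The authors deposited 1 file of whole-number counts for each library. Per the submitters' processing notes, they used FastQC 0.11.2, cutadapt 1.4.1, TopHat 1.4.1, SAMtools 0.1.19, HTSeq 0.6.1 and DESeq with the genome build GRCm38. Whether the counting used strand is not given in the sources used here. The files list 41388 gene identifiers and 5 summary lines each. The latter were kept apart. Of the reads counted for a gene, outside genes or on several genes, 7.06% to 11.2% lay outside genes and 1.90% to 2.76% on several genes. Alignments that were not unique are left out of these shares. They numbered 12903037 in the third 0.01 µg/kg library, the fewest in the comparison, and 34070433 in the third 0.1 µg/kg library, the most. Reads with several alignments were not counted, so genes with near-identical copies are uncertain.

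Symbols, coordinates and exon overlaps came from GENCODE M21 for GRCm38 (40340 identifiers matched), and promoters from RefSeq for GRCm38.p6. Counts were fitted in R 4.3.3 with edgeR 4.0.16 (TMM, filterByExpr with a minimum of 10 counts over the 4 groups, robust quasi-likelihood). The main comparison had 1 term for the arm, and the comparisons within an arm came from a one-way model of the 4 groups. Standard errors are the log2 fold change over the root of F. Alternatives were DESeq2 1.42.0, other scalings, filters and thresholds, a replicate block, the rank of the dose, a clock score, all 27 libraries, and leaving out libraries or groups. Leaving out the second and the third 0.01 µg/kg livers was chosen after seeing the data.

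The members, lists and rules were chosen with earlier results of these data known. Named genes were all members of the AhR and clock lists, the 15 largest called rises and falls (mean of 1 CPM or more, arms without overlap), up to 4 called members and the most abundant uncalled one of each other list, calls within the arms, Loxl4, Nqo1, Cyp1a2 and 5 reference genes. Others (Serpina1e, C8a, Wipf3, Col1a1, Col1a2, Col3a1, and those of the closing part) were chosen after their values were seen. Some genes of these lists and calls are not reported here. A single set of counts was simulated for 14191 genes, 200 of them changed. Its livers were drawn independently around a common mean per arm, with no steps between the doses of an arm and no unlike pair. There the test of the arms found 34.6% of genes changed 1.5-fold, 84.5% of those changed 2-fold and 91.8% of those changed 4-fold. Of its calls 8.90% were false. These shares need not hold for the real arms. Replicate libraries differed by more than sampling noise in every pair, with chi-square values of 15.6 or more per degree of freedom.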

Additional observations from a re-analysis of the deposited data

Results flagged for a closer look

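In 190 sets of 6 livers, the arms of the named genes, 17 held 1 liver far from the others by Dixon's test, and chance gives about 5%, or 1 set in 20. Among called genes, the third 0.03 µg/kg liver had 10.5 CPM of Ppard against 6.18 to 7.38 CPM in the other active livers. The second vehicle liver had 3.28 CPM of Per2 (1.75 to 2.07 in the other inactive ones) and 1.11 CPM of Mup-ps12. The third 0.01 µg/kg liver had 29.2 CPM of Nr1d2 (12.6 to 18.5 in the others) and 3.34 CPM of Ces2c (6.58 to 8.35). The third vehicle liver had 1.04 CPM of Sult2a3.

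Among genes not called, the third 0.03 µg/kg liver had 9.12 CPM of Npas2, where the other active livers had 1.63 to 4.02 CPM, and 6970 CPM of Fga, a fibrinogen chain. The second 0.03 µg/kg liver had 181 CPM of Hspa8 and 1176 CPM of Hsp90ab1, both chaperones and both the highest of the arm, and 199 CPM of Iigp1, an interferon-induced GTPase, the lowest. The second 0.1 µg/kg liver had 579 CPM of Ugt2b36. Of the inactive livers, the first with vehicle had 2.35 CPM of Gpm6a, the second 244 CPM of Ccnd1 and the third 8.02 CPM of Mylpf, a muscle myosin light chain. The first at 0.01 µg/kg had 32.2 CPM of Per1 and the second 1.88 CPM of Gsta1.

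The step of Cyp1a1 between 0.03 and 0.1 µg/kg, a log2 fold change of 3.07, was the 1 difference between groups of an arm that passed the test.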

How the results depend on the processing

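The 55 calls of the pooled comparison became 100 in a one-way model of the 4 groups, 214 with DESeq2, 16 at an adjusted p below 0.01, 92 below 0.1, 1 with the clock score as a covariate, 22 with vehicle alone as the inactive arm, 4 with 0.03 µg/kg alone as the active arm, and 24 to 63 with 1 library left out. All 55 kept their direction under RLE and upper-quartile factors and in DESeq2, and 53 of 55 with the clock score. The 1 call between the active doses became 6 without a low-count filter, 15 with DESeq2, 3 at an adjusted p below 0.1 and 1 to 2 with a library left out. The 0 calls of 0.01 µg/kg against vehicle became 6, 37, 2 and 0 to 115 under these settings. The 3 called AhR targets became 1 without the vehicle group, without the 0.1 µg/kg group or without the second and the third 0.01 µg/kg livers, and 0 with the clock score. The 8 called clock genes became 12 in the one-way model of the 4 groups, with DESeq2, with the rank of the dose and without the 0.03 µg/kg group. They became 10 without a low-count filter. Their count fell to 3 without the 0.01 µg/kg group, 4 without the vehicle group and 2 without the 0.1 µg/kg group. It was 5 without the second and the third 0.01 µg/kg livers (4 of the 8, and Cry2) and 0 with the clock score. The cause of these shifts was not tested. Where a group was left out, the number of livers and the doses compared changed together.

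Log2 fold changes that turned sign with the clock score as a covariate were, among the genes named in the report, those of Tef (-0.22), Wipf3 (-0.15), Arntl (0.38), Nfil3 (0.38), Npas2 (0.66), Ciart (-0.85), Ugt1a6b (0.063), Per1 (-1.90), Clock (0.32) and Cyp1b1 (-0.12). Members of the clock lists, such as Tef, Arntl, Nfil3, Npas2 and Clock, are part of that score. Their turns are thus partly built into the fit and say nothing on these genes. Per1 turned to -0.0061 without the second 0.03 µg/kg liver, and Clock to 0.044 without the 0.1 µg/kg group. Cyp1b1 turned to -0.12 without the second 0.1 µg/kg liver and to -0.23 without that group. Ahr turned to 0.0049 in the one-way model, 0.13 without the second vehicle liver, 0.012 without the second 0.1 µg/kg liver and 0.31 without the vehicle group. Gsta1 turned to 0.19 in the one-way model, 0.74 without the second 0.01 µg/kg liver, 0.18 in the model of 27 libraries, 1.53 without the 0.01 µg/kg group, 0.81 without the unlike pair and 0.18 with the rank of the dose. With 1 library left out the ranges were -0.0061 to 1.27 (Per1), -0.56 to 0.74 (Gsta1), -0.12 to 0.28 (Cyp1b1) and -0.15 to 0.13 (Ahr). All of these but Tef and Wipf3 were uncalled in the main comparison.

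With a block for the replicate number the pooled comparison gave 37 calls, 36 of them among the 55. For same-numbered livers of different groups, the correlation of their deviations from the group means ran from -0.209 to 0.234 and passed 0.1 in 5 of 18 pairs. Its median was 0.0080, beside 0.030 for the 36 pairs with unlike numbers. The replicate numbers were therefore not used as pairs in the main fit. With 3 livers per group this check is weak, and a shared batch or order of collection was not tested.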

Other observations

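The second and the third 0.01 µg/kg livers shared levels that the other 10 did not reach, for genes chosen after their values were seen. Elovl3, an elongase of very long fatty acids with a strong daily rhythm, was at 0.548 and 0.360 CPM there and at 7.11 to 28.6 CPM in the others. Sult2a7, a sulfotransferase, was at 0.743 and 0.720 CPM against 7.50 to 21.4 CPM. Asns, asparagine synthetase, was at 3.17 and 2.11 CPM against at most 0.407 CPM, Prom1 at 13.9 and 12.3 CPM against 0.961 to 7.01 CPM, and Clec2h at 8.21 and 8.54 CPM against 0.502 to 2.08 CPM.

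The third vehicle liver held 42.8 CPM of Acta1 and 13.7 CPM of Ckm, skeletal muscle genes that the other 11 livers had at 0.231 CPM or less. Bcl6, a repressor in the growth hormone response of the liver, ran from 4.19 to 11.6 CPM in the inactive and 6.08 to 66.0 CPM in the active livers and was the 1 gene called with the clock score as a covariate.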
